A study of Camellia sinensis with 12 samples.

Results

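The genes described here are named for enzymes of glycolysis, fermentation and gluconeogenesis, and they were followed in tea leaves during withering, the airing of plucked shoots with which tea processing begins. They were chosen by the words in their descriptions: hexokinase, phosphofructokinase, phosphoglycerate mutase, enolase, pyruvate kinase, alcohol dehydrogenase, lactate dehydrogenase, pyruvate decarboxylase, malate synthase, isocitrate lyase or carboxykinase. Descriptions with the word cinnamyl were left out, and a member needed a count of at least 120 summed over the 12 libraries. Of 52332 genes in the table, 108 matched these words and 94 reached that sum. The rule uses no measured difference between times, though it was set with earlier results of these data known. Shoots of the tea cultivar Longjing43 (Camellia sinensis), plucked as a bud with the leaves next to it, were held in a climate chamber at 25°C. Leaf RNA was sequenced at 0, 9, 15 and 24 h of withering, in 3 libraries per time. The 0 h leaves are the control, and later times have no unwithered leaves beside them, so withering cannot be told apart from the hour of the day or the time since plucking. The sample labels give the illumination as 0 lux, whereas the paper describes a lit chamber.

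Glycolysis turns glucose into pyruvate in the cytosol, and plants run a second set of its enzymes in the plastid. Hexokinase and phosphofructokinase commit sugar to the pathway, and phosphoglycerate mutase, enolase and pyruvate kinase complete it. Where respiration cannot take up the pyruvate, pyruvate decarboxylase makes acetaldehyde and alcohol dehydrogenase reduces it to ethanol, which recycles NADH. Phosphoenolpyruvate (PEP) carboxykinase runs the other way and makes PEP from oxaloacetate, the first committed step of gluconeogenesis from organic acids and lipids. Isocitrate lyase and malate synthase form the glyoxylate cycle, which supplies that route in seedlings. A plucked tea leaf receives no further water from the plant and lives on its stored carbon.

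The words covered 5 genes for hexokinase, 10 for phosphofructokinase, 21 for phosphoglycerate mutase, 7 for enolase, 12 for pyruvate kinase, 6 for pyruvate decarboxylase, 29 for alcohol dehydrogenase, 2 for carboxykinase and 2 for malate synthase. Lactate dehydrogenase matched 0 genes, and the 1 gene for isocitrate lyase, CSS043002, fell under the minimum. Not every description is that of a pathway enzyme. Of the alcohol dehydrogenase matches, 8 were Myb/SANT-like transcription factors, 4 long-chain fatty alcohol enzymes and 9 members of a broad zinc-binding family, which leaves 8 genes described as alcohol dehydrogenase 1 (ADH1). Of the phosphoglycerate mutase matches, 18 carried only a family name, which also covers phosphatases outside glycolysis. A gene for 2-isopropylmalate synthase, an enzyme of leucine synthesis, matched through the words malate synthase. Without these 40 genes, 54 members remained that are described as enzymes of the pathways themselves. These 54 include the genes described as hexokinase-like, not all of which need be active enzymes. The 94 members lay on 89 scaffolds. Near-identical copies may share reads, and the sources used here do not say how such reads were assigned.

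The libraries held 64931031 to 118261728 counts, and the members took 0.404 to 0.415% of them at 0 h and 0.521 to 0.546% at 24 h. CPM here stands for counts scaled to a library total of 1e6 after TMM normalisation (trimmed mean of M-values). Gene length does not enter, so a level compares 1 gene between times and not 1 gene with another. The quasi-likelihood test of edgeR was run on all 12 libraries in 1 fit, with Benjamini-Hochberg adjustment over the 26712 genes tested and a threshold of 0.05. All 94 members passed the filter on low counts. Whether libraries of the same time stand for separately withered leaves is not stated, so the p-values rest on a spread between libraries that may be technical. Scaling matters here: with library size as the only scaling, the median of all genes moved by -0.20, -0.09, -0.37 and -0.67 (log2) at 9 against 0 h, 15 against 9 h, 24 against 15 h and 24 against 0 h. The 19 markers of leaf mesophyll (rubisco small chain and chlorophyll a/b proteins) summed to 11253 to 17885 CPM at 0 h, 3809 to 5885 CPM by 9 h, 3753 to 4752 CPM by 15 h and 1532 to 1733 CPM by 24 h, and 13 of the 17 that could be tested fell over 24 h. The 8 epidermis markers summed to 65.6 to 73.5 CPM at 0 h and 46.5 to 50.9 CPM at 9 h. Their sum was lowest at 15 h, with 25.3 to 30 CPM, and stood at 82.4 to 89.6 CPM at 24 h. Of the 7 tested, 4 rose and 2 fell at 9 h against 0 h, and 5 rose and 1 fell over 24 h. The drop of the sum by 9 h was thus not shared by most of them. The sum of the 6 guard cell markers went from 69.1 to 85.5 CPM down to 15.3 to 17.4 CPM at 9 h. It then ran at 18.2 to 29.1 and 33.9 to 64.2 CPM, and of the 5 tested, 2 rose and 3 fell over 24 h. The 48 vascular markers summed to 1007 to 1175 CPM before withering and to 958 to 1014 and 1010 to 1153 CPM in the middle. In the end they were at 1528 to 1838 CPM, and of the 31 tested, 14 rose and 12 fell over 24 h. The part of all these markers in the members' changes was not tested. Fewer cells of a type cannot be told apart from less RNA per cell in such bulk libraries.

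The enzyme genes did not move together. At 9 h against 0 h, 34 members were higher and 22 lower, or 36.2 and 23.4% of the 94, beside 27.1 and 26.8% of all genes tested. At 15 h against 9 h, 26 were higher and 14 lower, beside 19.8 and 18.1% of all genes. At 24 h against 15 h, 27 were higher and 29 lower, beside 25.9 and 30.8%. Over the whole course, 24 h against 0 h, 35 were higher and 30 lower, or 37.2 and 31.9% of the members, beside 34.7 and 39.1% of all genes. In either direction 56, 40, 56 and 65 of the 94 members were called. Of the 26712 genes tested, 14406, 10111, 15136 and 19707 were called (53.9, 37.9, 56.7 and 73.8%). The shares of members called higher thus lay above those of all genes, by most in the first step, and no test of that difference was made. This did not hold throughout for the 54 described as pathway enzymes. In the order above, 38.9, 29.6, 20.4 and 33.3% of the 54 were higher and 24.1, 13, 35.2 and 33.3% lower. At 24 h against 15 h and 24 h against 0 h their share higher was thus below that of all genes. With library size as the only scaling, 23 of the 94 members were higher and 30 lower, then 22 and 15, 13 and 50, and 19 and 55 in the same order. The share of all called genes that was higher fell from 47% to 28.2% at 24 h against 0 h under that scaling. The median log2 fold change at 24 h against 0 h was 0.12 over the members, -0.01 over the 54 pathway enzymes and -0.14 over all genes. Of the 94 members, 83 were called in at least 1 of the 4 comparisons, beside 22793 of the 26712 genes tested (85.3%). Among members called at 24 h against 0 h, the libraries of the 2 times did not overlap in 60 of 65 (92.3%), beside 97% of all genes called.

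**Figure D1:**
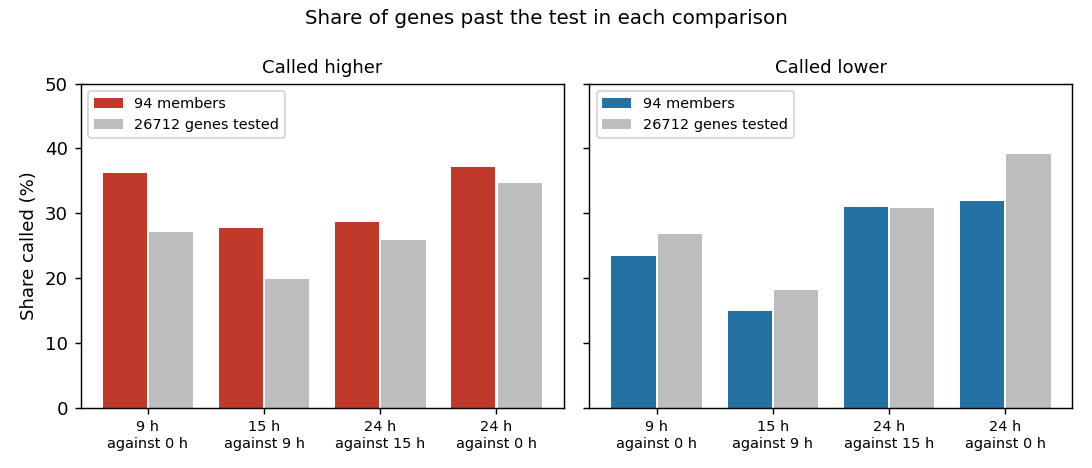
Share of genes past the test (%) in each of the 4 comparisons, called higher on the left and lower on the right, for the 94 members (coloured bars) and the 26712 genes tested (grey bars). The widest gap is in the genes called higher at 9 h against 0 h, where the bars stand at 36.2 and 27.1%.

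Hexokinase phosphorylates glucose, and in Arabidopsis hexokinase 1 also senses it. The hexokinase 1 gene (MSTRG.29857, scaffold 372, 3784190 to 3794048, plus strand) measured 70.4, 74.4 and 72.7 CPM at 0 h, 137, 130 and 137 at 9 h, 193, 184 and 187 at 15 h and then 230, 240 and 243 at 24 h. No library of 1 time overlapped those of another. Its log2 fold change at 24 h against 0 h was 1.71 (SE 0.06, adjusted p = 4.48e-11, n = 3), and 1.05 with library size as the only scaling. The steps were 0.89, 0.48 and 0.34, of which the last turned to -0.04 under that scaling. Hexokinase-like 1, a relative without catalytic activity in Arabidopsis, had a pair of genes that went opposite ways. MSTRG.36056 (scaffold 4669) was at 57.8 ± 3.79 CPM at 0 h, dipped to 45.7 ± 1.73 at 9 h and reached 122 ± 4.66 at 24 h (SD, n = 3), and its last step was a rise of 1.15 (SE 0.08). MSTRG.12804 (scaffold 1880) was at 11.2 ± 0.999 CPM before withering and at 1.05 ± 0.646 CPM by 9 h, a log2 change of -3.40 (SE 0.44, adjusted p = 2.25e-05), and was at 1.61 ± 0.681 CPM at 24 h. Hexokinase 3 (MSTRG.43405), a plastid form in Arabidopsis, fell by 0.73 on the log2 scale over 24 h (SE 0.13), from 8.88 ± 0.965 to 5.34 ± 0.0538 CPM. Hexokinase-like 3 (CSS028170) stayed under 0.5 CPM in every library and was not called. Transcripts of all 5 genes, the hexokinase-like ones included, summed to 151 ± 6.88 CPM at 0 h and 366 ± 4.35 CPM at 24 h. Hexokinase 1 held 48.2% of these counts at 0 h, 75.4% at 15 h and 64.9% at 24 h. The hexokinase-like 1 gene MSTRG.36056 held 38.3% at 0 h and 33.2% at 24 h.

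Phosphofructokinase makes fructose 1,6-bisphosphate, and plants have an ATP-dependent enzyme and a reversible one that uses pyrophosphate. The 7 numbered genes are of the ATP-dependent kind. The 3 with only the family name carry a description that the Arabidopsis annotation gives to subunits of the pyrophosphate-dependent enzyme. All 3 of the latter rose in the first step, but MSTRG.11887 and MSTRG.48784 then fell below their starting level. MSTRG.11887 (scaffold 1816) measured 123, 131 and 126 CPM at 0 h, 174, 150 and 167 at 9 h, 119, 117 and 116 at 15 h and then 57.6, 49.1 and 49.8 at 24 h. The 24 h libraries thus lay below all others, with a log2 fold change of -1.28 against 0 h (SE 0.08, adjusted p = 9.52e-09), after a first step of 0.37. With library size only, the first steps of MSTRG.11887 (0.17) and MSTRG.42318 (0.12) did not pass. MSTRG.48784 (scaffold 872) followed the same course, from 39.8 ± 1.73 to 57.7 ± 5.23, 39.1 ± 3.25 and 19.5 ± 2.08 CPM, with each step past the test (adjusted p = 0.000544, 0.000684 and 2.87e-06). MSTRG.42318 (scaffold 635) instead rose from 55.6 ± 2.05 to 82 ± 3.73 CPM, a change of 0.56 (SE 0.06) that turned to -0.11 with library size only. Its share of the counts of the 3 genes went from 25.1% to 53.4%.

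Of the numbered phosphofructokinases, 4 rose and 1 fell over 24 h, and with library size only 1 rose and 4 fell. Phosphofructokinase 5 (MSTRG.13308, scaffold 1928), a plastid form in Arabidopsis, rose under both scalings. It measured 20, 22.6 and 20.2 CPM at 0 h, 47.3, 47.6 and 47.3 at 15 h and then 60.1, 43.2 and 46.8 at 24 h, a rise of 1.26 on the log2 scale (SE 0.13, adjusted p = 9.96e-07). The other phosphofructokinase 5 gene, MSTRG.18188, was high only in the middle, with 10.9 ± 1.82 CPM at 9 h and 10.2 ± 0.775 CPM at 15 h between 4.63 ± 0.245 CPM at the start and 4.09 ± 1.15 CPM at the end. Its first step was 1.24 and its last -1.32 (both SE 0.19). Phosphofructokinase 2 (MSTRG.17574) ended lower, with 31.6, 32.1 and 31.7 CPM at 0 h against 17.4, 13.8 and 12.6 at 24 h, a change of -1.12 (SE 0.12). The most counted gene of the group, phosphofructokinase 4 (MSTRG.4580), moved from 219 ± 9.17 to 275 ± 22.9 CPM, a change of 0.33 (SE 0.07) that reversed to -0.33 with library size only, and MSTRG.42567 (0.19) and MSTRG.50852 (0.49), both described as phosphofructokinase 3, also reversed, to -0.48 and -0.18. The change of MSTRG.42567 was also lost without the first or the third library of 0 h or of 24 h (0.15 to 0.19).

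Phosphoglycerate mutase moves the phosphate of 3-phosphoglycerate, and the plant glycolytic enzyme is the cofactor-independent form. MSTRG.32631, described as such, held 84.9% of the counts of the 3 cofactor-independent genes at 0 h. It measured 23.3, 23 and 21.9 CPM at 0 h, 28.1, 27.5 and 27.6 at 15 h and then 15.7, 22.7 and 17.8 at 24 h. The last step was a fall of 0.57 on the log2 scale (SE 0.12, adjusted p = 0.00101). The difference between 24 h and 0 h, -0.28 with an adjusted p of 0.0427, was lost under 9 alternatives, leaving out the first 24 h library among them (-0.18). MSTRG.22507 and MSTRG.25956 had low levels that were higher in the middle. MSTRG.22507 went from 2.09 ± 0.464 CPM to 4.24 ± 0.284, 4.36 ± 0.496 and 2.23 ± 0.827, and MSTRG.25956 from 1.96 ± 0.738 to 4.94 ± 0.35, 4.46 ± 1.05 and 2.14 ± 0.86. Both rose in the first step (1.02 and 1.33) and fell in the last (-0.96 and -1.05).

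Among the 18 genes with only the mutase family name, 5 rose and 8 fell over 24 h (2 and 12 with library size only), and the extremes lay far apart. MSTRG.27397 (scaffold 3435) measured 10.1, 10.7 and 11.7 CPM at 0 h, 64.2, 62.2 and 54.3 at 9 h, 79.5, 86.3 and 100 at 15 h and then 159, 137 and 156 at 24 h. It rose in each step, by 3.80 in all (SE 0.12, adjusted p = 9.23e-12), or 13.9-fold. MSTRG.46241 (scaffold 7687) also rose in each step, from 41.2 ± 1.7 to 193 ± 10.6 CPM, by 2.23 in all (SE 0.08), although its last step of 0.47 did not pass with library size only (0.10). These 2 genes held 15.3% of the family's counts at 0 h and 71.5% at 24 h. MSTRG.42819 (scaffold 655), the most counted at 0 h, fell from 139, 112 and 134 CPM to 30.3, 35.2 and 42.6 by 9 h (-1.83, SE 0.13) and held 37.6% of the family's counts before and 7.14% after 24 h. MSTRG.48401 fell late, from 26.5 ± 2.16 CPM at 0 h to 17.3 ± 1.75 at 15 h and 4.43 ± 0.565 at 24 h, by 2.58 on the log2 scale in all. MSTRG.35641 fell from 8.16 ± 0.427 to 0.495 ± 0.119 CPM (-4.03, SE 0.23). The substrates of these family members are not given by their descriptions.

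Enolase makes PEP. Of its 7 genes, 2 rose and 4 fell over 24 h, and the genes that rose were the most counted ones. With library size only, 1 rose and 6 fell. MSTRG.42303 (scaffold 6343, 562043 to 569471, plus strand) measured 84.7, 102 and 106 CPM at 0 h, 266, 239 and 262 at 9 h, 326, 339 and 328 at 15 h and then 418, 366 and 400 at 24 h. Its libraries did not overlap between times, and its log2 fold change was 2.02 at 24 h against 0 h (SE 0.09, adjusted p = 3.91e-10), or 1.35 with library size only. The last step, 0.26, turned to -0.12 under that scaling and was lost without any 1 of the 15 h libraries or without the first or the third 24 h library (0.21 to 0.27). The other abundant gene, MSTRG.8454 (scaffold 1571), went from 245 ± 7.71 to 369 ± 16.7 CPM at 15 h and 323 ± 30 at 24 h, a change of 0.40 over 24 h that turned to -0.27 with library size only. Together these genes held 83.3% of the enolase counts at 0 h and 95.4% at 24 h. The remaining genes were minor and mostly lower. MSTRG.24557 (scaffold 3036) fell from 15.1, 14.2 and 12.3 CPM to 1.66, 2.7 and 2.45 at 9 h and to 0.53, 0 and 0.443 at 24 h. That is a log2 change of -2.62 (SE 0.47) in the first step and of -5.35 (SE 0.57, adjusted p = 1.58e-06) in all. Both genes described as enolase 1, the plastid form in Arabidopsis, fell: MSTRG.25124 from 12.5 ± 0.693 to 3.8 ± 1.57 CPM (-1.71, SE 0.23) and MSTRG.39533 from 8.21 ± 1.07 to 1.83 ± 0.594 CPM (-2.17, SE 0.23). A cytosolic enolase (MSTRG.41345) was at 28.8 ± 3.03 CPM at 0 h and 26.2 ± 2.65 CPM at 24 h, and did not pass at 24 h against 0 h (-0.14, adjusted p = 0.306), whereas with library size only it fell by 0.81 on the log2 scale (adjusted p = 3.98e-05).

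Pyruvate kinase makes pyruvate and ATP. Of the 10 genes with the family name, 3 rose and 4 fell over 24 h, and with library size only 0 rose and 6 fell. MSTRG.12734, the most counted, varied between libraries of the same time, with 151, 76.8 and 140 CPM at 0 h, 139, 107 and 200 at 15 h and then 182, 149 and 124 at 24 h. The groups overlapped, and 24 h against 0 h did not pass (0.31, SE 0.25, adjusted p = 0.284). Its 15 h step passed (0.78, adjusted p = 0.0273) but not without any 1 of the 9 h libraries (0.70 to 0.82) or without the third 15 h library (0.48). MSTRG.43921 rose in the middle step, from 46.9 ± 2.86 to 79.1 ± 4.33 CPM (0.75, SE 0.09). MSTRG.34114 rose to 76.5 ± 2.73 CPM at 9 h and fell to 39.7 ± 3.02 at 24 h, from 60.2 ± 1.98 at 0 h, and its first step of 0.34 did not pass with library size only (0.14).

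The plastid pyruvate kinases, which in seeds feed fatty acid synthesis, were both lower at 24 h. The gene for beta subunit 1 (MSTRG.5835, scaffold 1379, 707175 to 720989, plus strand) measured 120, 129 and 129 CPM at 0 h, 63.1, 60.1 and 60.2 at 9 h, 44, 42.2 and 41.9 at 15 h and then 46.6, 43.2 and 45.8 at 24 h. Every withered library was below every fresh one. The fall came in the first 2 steps (-1.04 and -0.52, adjusted p = 3.17e-08 and 4.6e-05), and the total was -1.48 (SE 0.07). Plastidial pyruvate kinase 3 (MSTRG.34528, scaffold 435) kept its level to 15 h and then fell, with 32.8, 36.4 and 35.9 CPM at 0 h, 38, 42.3 and 36.7 at 15 h and then 24.1, 16.3 and 21.1 at 24 h. Its last step was -0.93 (SE 0.14, adjusted p = 8.24e-05). The mesophyll marker sum had means of 15430, 5170, 4216 and 1609 CPM at 0, 9, 15 and 24 h. It thus dropped by most to 9 h and again after 15 h. MSTRG.5835 fell only to 15 h and MSTRG.34528 only after it. The part of the mesophyll markers in these falls was not tested.

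Pyruvate decarboxylase opens ethanol fermentation. Among its 6 genes was a large rise that came only after 15 h. MSTRG.44749 (scaffold 713, 745368 to 749192, minus strand) measured 251, 246 and 243 CPM at 0 h, 278, 268 and 268 at 9 h, 282, 296 and 312 at 15 h and then 1131, 1368 and 1285 at 24 h. The first 3 times lay close together and the 24 h libraries far above them. The steps to 9 and 15 h did not pass (0.14 and 0.13, adjusted p = 0.147 and 0.207). The last step was 2.09 (SE 0.08, adjusted p = 5.32e-10), or 4.25-fold, and 1.72 with library size only. This gene held 66.4% of the pyruvate decarboxylase counts at 0 h, 65% at 15 h and 86.8% at 24 h. MSTRG.7389 (scaffold 1496) rose earlier and less, with 47.4, 55.2 and 59.4 CPM at 0 h, 83.4, 85.2 and 89.1 at 15 h and then 148, 112 and 132 at 24 h. Its total was 1.27 (SE 0.12), or 0.60 with library size only. MSTRG.14763 and MSTRG.20322 were lower at 24 h than at 0 h (-0.95 and -0.61). MSTRG.17703 was higher at each later time, at 26.5 ± 2.57 CPM at 0 h and 34.4 ± 1.11 at 24 h (0.37), but this turned to -0.30 with library size only.

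ADH1 reduces acetaldehyde to ethanol, and in Arabidopsis it is among the best known genes of low oxygen. In withering leaves 2 of the 8 ADH1 genes rose over 24 h and 0 fell, and with library size only 2 rose and 4 fell. The 2 genes that rose were MSTRG.10897 and MSTRG.10900, neighbours on scaffold 1760 at 219167 to 224113 (minus strand) and 369429 to 373282 (plus strand), 145316 bases apart with 0 genes of the table between them. MSTRG.10900 measured 14.9, 16.5 and 16.1 CPM at 0 h, 28.4, 25.8 and 29.6 at 9 h, 28.8, 28.4 and 28 at 15 h and then 45.8, 44.4 and 47.5 at 24 h. MSTRG.10897 measured 3.78, 4.67 and 5.79 CPM at 0 h, 6.89, 6.65 and 7.97 at 9 h, 9.52, 9.58 and 12.3 at 15 h and then 16.9, 18.4 and 16.1 at 24 h. In both, every 24 h library lay above all others, with log2 fold changes against 0 h of 1.54 (SE 0.08) and 1.85 (SE 0.17). Whether the pair shares reads was not tested. MSTRG.31664, the most counted ADH1 gene at 0 h, had 23.5, 28.2 and 26 CPM at 0 h, 41.2, 33.8 and 32.6 at 9 h and, in the end, 22.4, 19.2 and 24.6 CPM. It rose to 9 h (0.47, adjusted p = 0.00391, though 0.27 and adjusted p = 0.0549 with library size only) and fell back by 15 h (-0.48). It held 48.2% of the ADH1 counts at 0 h and 24.1% at 24 h, whereas MSTRG.10900 went from 29.5% to 50.1%. The other 5 ADH1 genes stayed under 3 CPM in every library.

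**Figure D2:**
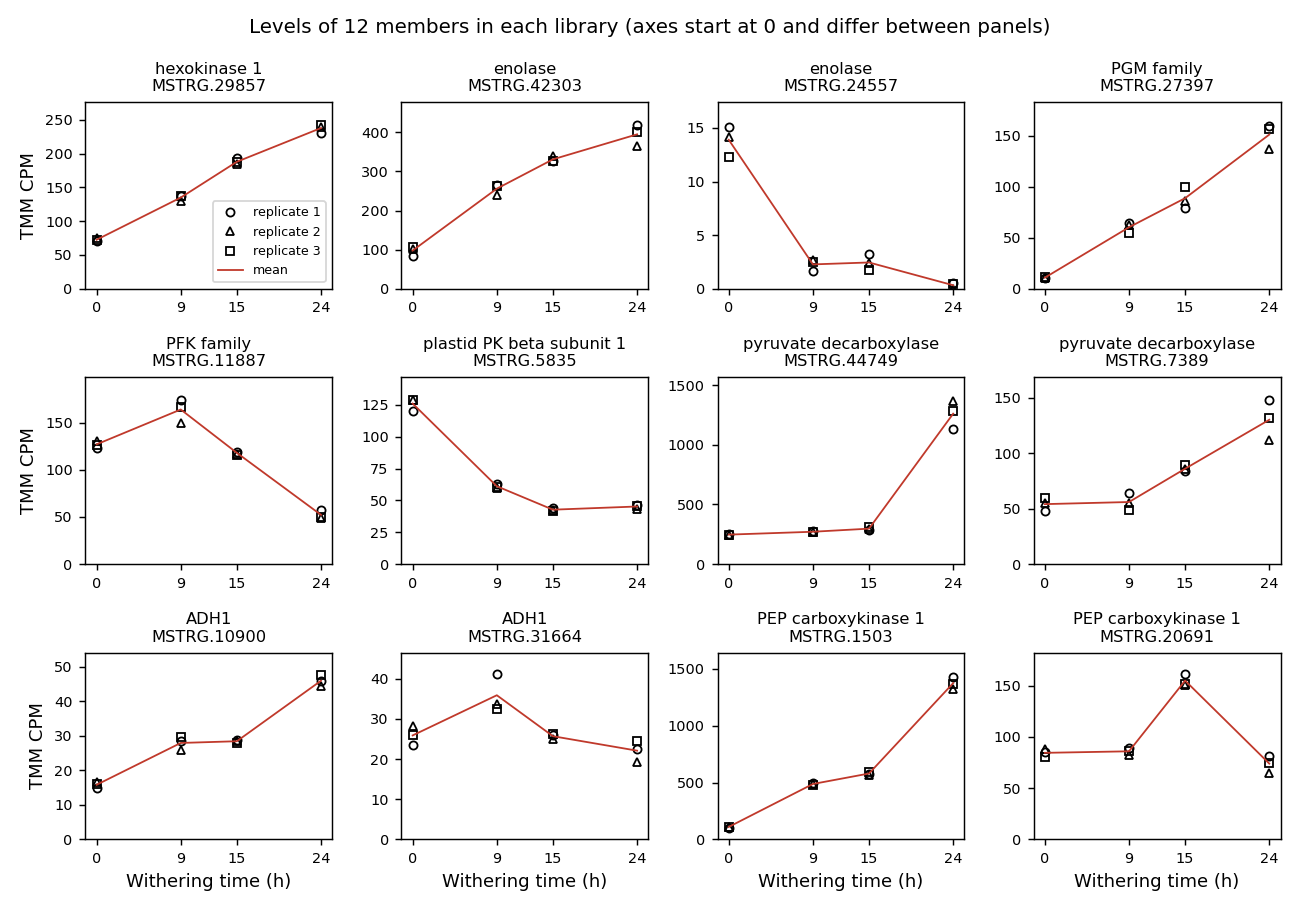
TMM CPM of 12 members (vertical axes, which start at 0 and differ between panels) against withering time (h), with 1 symbol per library and a line through the means of 3 libraries. MSTRG.44749 climbs only a little to 15 h, at 297 CPM, and reaches 1261 CPM at 24 h. The PEP carboxykinase gene MSTRG.1503 is already at 487 CPM at 9 h.

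Of the 2 PEP carboxykinase genes, 1 rose in every step and the other was high at 15 h only. The gene MSTRG.1503 (scaffold 1085, 3267327 to 3278407, plus strand) measured 104, 112 and 113 CPM at 0 h, 496, 484 and 482 at 9 h, 578, 569 and 589 at 15 h and then 1426, 1324 and 1367 at 24 h. The 4 times did not overlap in any library. It rose by 2.15 in the first step (SE 0.06, adjusted p = 3.28e-11), by 0.25 in the middle step (adjusted p = 0.00672) and by 1.25 in the last (SE 0.06, adjusted p = 4.81e-09). In all it rose 12.5-fold, or by 3.64 on the log2 scale (SE 0.07, adjusted p = 2.42e-13), or 2.98 with library size only. The second PEP carboxykinase 1 gene, MSTRG.20691 (scaffold 2611, 1026177 to 1035332, plus strand), behaved differently. It measured 85, 87.8 and 80.8 CPM at 0 h, 89.6, 82.3 and 86 at 9 h, 161, 151 and 152 at 15 h and then 81.8, 65.3 and 75 at 24 h. Only the 15 h libraries stood apart, with a rise of 0.85 (SE 0.08, adjusted p = 5.13e-06) and then a fall of 1.07 (SE 0.09). Against 0 h, the 24 h level did not pass (-0.19, adjusted p = 0.0554), but it did with library size only (-0.86, adjusted p = 5.18e-07) and without the first 24 h library (-0.28, adjusted p = 0.00779). The share of PEP carboxykinase counts held by MSTRG.1503 went from 56.5% ± 1.71 at 0 h to 85% ± 0.402 at 9 h and 94.9% ± 0.373 at 24 h.

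The glyoxylate cycle was near the limit of these libraries. Malate synthase (CSS029160) had 0.229, 0.356 and 0 CPM at 0 h and 0.87, 0.904 and 0.665 CPM at 24 h. The groups did not overlap, but the difference missed the threshold (2.03, SE 0.88, adjusted p = 0.0531). It passed with DESeq2's size factors (2.11) but not with library size only (1.36, adjusted p = 0.173). The isocitrate lyase gene CSS043002 summed to 58 counts over the 12 libraries. It was under the minimum and is not compared between times.

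The matches outside the pathways also changed in both directions. Among the zinc-binding alcohol dehydrogenase family, a broad group whose substrates the descriptions do not give, 5 rose and 3 fell over 24 h (3 and 5 with library size only). MSTRG.15238 (scaffold 2112) measured 23, 25 and 26.6 CPM at 0 h and 132, 117 and 122 at 24 h, with rises in each step and 2.31 in all (SE 0.08). A gene 88841 bases away, MSTRG.15241, went from 172 ± 6.55 to 241 ± 21.8 CPM (0.49), which turned to -0.18 with library size only. MSTRG.39286 measured 124, 93.1 and 123 CPM at 0 h and 241, 420 and 269 at 24 h, and 1.17 of its rise of 1.45 (SE 0.19) came by 9 h. MSTRG.183 kept its level to 15 h and fell by 1.04 on the log2 scale in the last step (SE 0.08). Of the 8 Myb/SANT-like factors, which bind DNA and are not dehydrogenases, 4 rose and 0 fell, and with library size only 2 rose and 4 fell. MSTRG.19804 was at 4.85, 5.72 and 4.58 CPM at 0 h and 38.7, 37.1 and 38.1 at 24 h (2.91, SE 0.14), with most of the rise in the last step (2.40). MSTRG.34903 rose by 1.05, with 1 library far from the rest at 24 h (83.5, 40.3 and 35.1 CPM), and did not pass with library size only (0.37).

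Long-chain fatty alcohol enzymes held the member with the widest range. MSTRG.46399 (scaffold 773, 1462539 to 1467248, plus strand) had 0 counts in all 3 libraries at 0 h, 0.973, 0.497 and 0.897 CPM at 9 h, 3.57, 3.39 and 1.64 at 15 h and then 13.9, 18.8 and 14.6 at 24 h. Its mean of 15.8 CPM at 24 h was 1417-fold a floor of 3 counts over the 0 h group (0.0111 CPM). That ratio is a lower bound only if 1 read gives 1 count, which is not known here. A relative, MSTRG.9353, went down instead, from 24.4, 26.2 and 28.5 CPM at 0 h to 3.5, 4.07 and 3.68 at 15 h (-1.42 and -1.39 in the first 2 steps). MSTRG.2780 fell to 2.69 ± 0.275 CPM at 15 h and returned to 7.2 ± 1 at 24 h. The gene for 2-isopropylmalate synthase 1 (MSTRG.36699) rose from 31.2 ± 0.344 to 64.7 ± 10.7 CPM (1.05, SE 0.11).

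**Figure D3:**
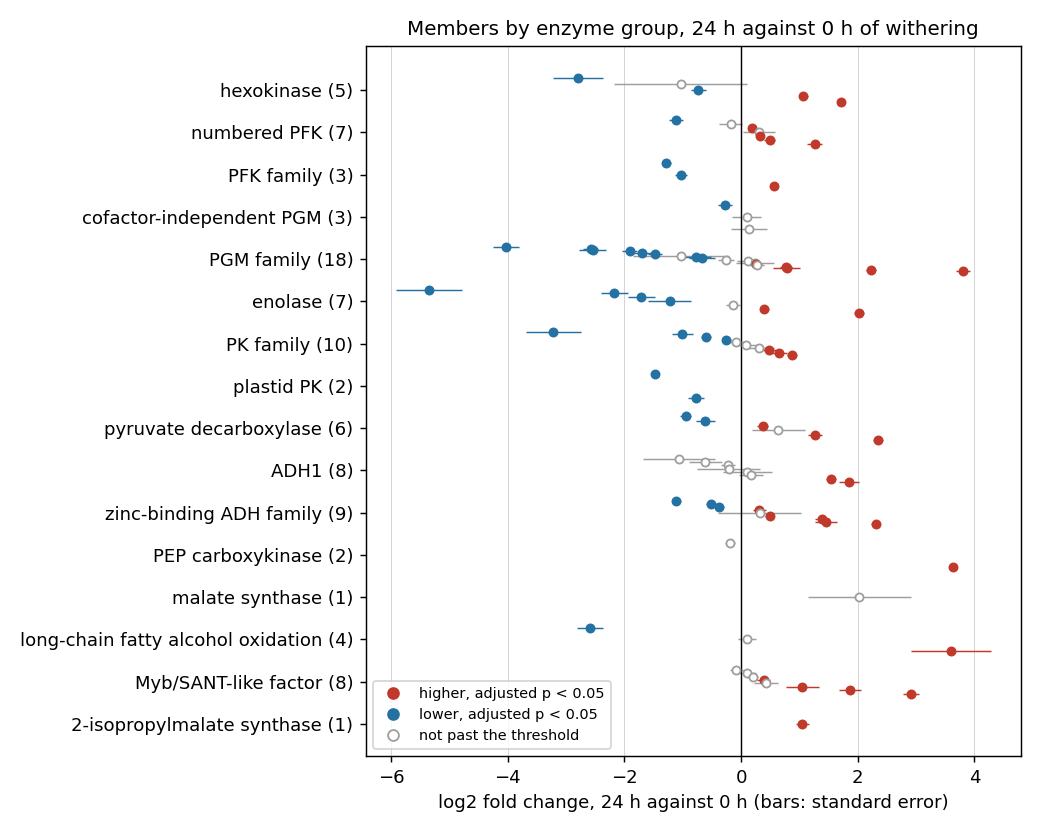
Log2 fold change at 24 h against 0 h (horizontal axis, bars are standard errors) of 93 members in 16 groups, with the number of members in brackets; filled points passed the test and open points did not. MSTRG.46399 is not drawn because it had 0 counts at 0 h. Nearly every group with several genes has points on both sides of 0, and the pair of plastid pyruvate kinase genes lies wholly below it.

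Summed over all members, transcripts went from 3353 ± 54.3 CPM at 0 h to 4244 ± 70 at 9 h, 4973 ± 118 at 15 h and 6879 ± 21.2 at 24 h. A few genes carried most of this. MSTRG.1503 (PEP carboxykinase) and MSTRG.44749 (pyruvate decarboxylase) made up 2277 of the 3526 CPM gained, or 64.6%, and the other 92 members went from 2997 to 4245 CPM. With library size only, the sum of all members went from 4103 to 5301 CPM, while the other 92 members went down from 3667 to 3271 CPM. The enolase MSTRG.42303 added 297 CPM. The direction of several group sums depended on the scaling. PEP carboxykinase went from 194 ± 5.26 to 1447 ± 59.3 CPM and pyruvate decarboxylase from 372 ± 1.77 to 1451 ± 102, the latter from 457 ± 18.3 at 15 h, and both sums were also higher with library size only (238 to 1114 and 455 to 1119 CPM). Enolase went from 411 ± 16.2 to 752 ± 58.2, numbered phosphofructokinases from 407 ± 6.81 to 506 ± 7.4, and the pyruvate kinase family from 289 ± 39.4 to 323 ± 26.8, with overlap between the libraries of those times. With library size only, enolase still went up (503 to 579 CPM), but the numbered phosphofructokinases (498 to 390) and the pyruvate kinase family (354 to 249) went down. Sums of the phosphofructokinase family (222 ± 4.38 to 154 ± 8.11) and of plastid pyruvate kinases (161 ± 6.86 to 65.7 ± 5.68) went down under both scalings. Sums give no test here, since they weigh the most counted genes.

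**Figure D4:**
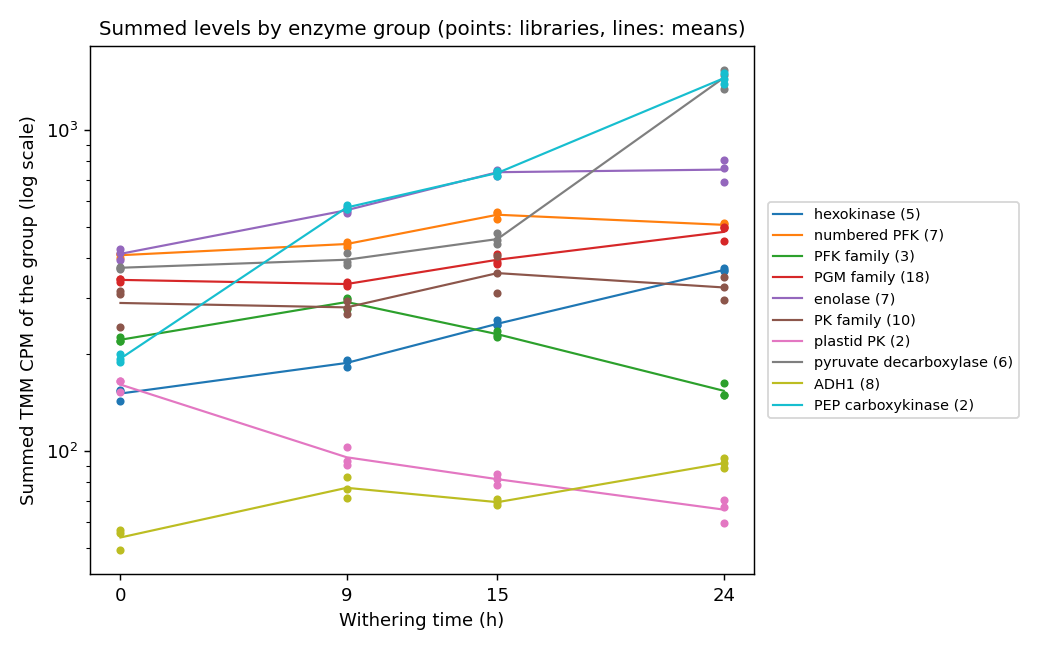
Summed TMM CPM (log scale) of 10 enzyme groups against withering time (h), with a point per library and a line through the means; the number of genes is in brackets. PEP carboxykinase and pyruvate decarboxylase start at 194 and 372 CPM and end at 1447 and 1451 CPM, and plastid pyruvate kinase and the phosphofructokinase family end below their start.

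Members followed many courses over time. Of 94, 8 rose in all 3 steps: hexokinase 1, the enolase MSTRG.42303, the PEP carboxykinase MSTRG.1503, the mutase family genes MSTRG.27397 and MSTRG.46241, the ADH1 gene MSTRG.10897, the zinc-binding gene MSTRG.15238 and MSTRG.46399. With library size only, the last step reversed in hexokinase 1 and MSTRG.42303 and did not pass in MSTRG.46241, MSTRG.10897 and MSTRG.15238. The middle step of MSTRG.10897 was also lost without the first or second 9 h library or the third 15 h library (0.39 to 0.52). MSTRG.35641 was the 1 member that fell in all 3, and its middle step was lost without the second or the third library of 9 h or of 15 h (-0.63 to -0.47). Calls in opposite directions in different steps were found in 26 members. These courses were not counted over all genes, of which 53.9, 37.9 and 56.7% were called in the 3 steps. They thus cannot be read as a trait of the members. The highest mean was at 0 h in 25.5% of members, at 9 h in 17%, at 15 h in 19.1% and at 24 h in 38.3%, beside 36.2, 17.2, 13.6 and 33.1% of all genes tested.

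The rest of central carbon metabolism was described from lists of gene names, to be read beside the 34.7% of all genes called higher and 39.1% called lower over 24 h. Among 38 tested genes of other glycolysis steps, 16 rose and 14 fell over 24 h, with a median log2 fold change of -0.08, and with library size only 8 rose and 21 fell. Log2 fold changes in this list ran from -6.79 to 4.74, and none of the 16 genes that rose is named here. Subunit A of plastid glyceraldehyde-3-phosphate dehydrogenase (MSTRG.22107) fell from 989 to 49.8 CPM. Phosphoglycerate kinase 1 (MSTRG.3739) fell from 54.2 to 2.69 CPM. Both are of kinds that serve the Calvin cycle. The cytosolic glyceraldehyde-3-phosphate dehydrogenase C2 (MSTRG.36050) was at 646 CPM at 0 h and 574 at 24 h and did not pass (-0.17, adjusted p = 0.174). Of 53 genes of pyruvate dehydrogenase and the tricarboxylic acid cycle, 30 rose and 10 fell with a median of 0.60, but 18 rose and 19 fell with library size only. Aconitase 3 (MSTRG.9621) rose from 152 to 842 CPM (2.47, SE 0.07), and pyruvate dehydrogenase kinase (MSTRG.37431), which switches the dehydrogenase off, from 51.8 to 267 CPM (2.36, SE 0.09). Among 59 aldehyde and C4 acid enzymes, 18 rose and 30 fell (median -0.38), and 9 rose and 44 fell with library size only. Log2 fold changes in this list ran from -7.63 to 7.30, and the genes named from it went up, against its median. Aldehyde dehydrogenase 2B7 (MSTRG.18399), of a family that oxidises acetaldehyde, went up from 1.36 CPM to 36, 41.3 and then 183 CPM (7.08, SE 0.16). NADP-malic enzyme 4 (MSTRG.41725), which makes pyruvate from malate, rose from 141 to 546 CPM by 9 h and stood at 452 CPM after 24 h. Of 16 genes of peroxisomal beta-oxidation, 10 rose and 5 fell (median 0.76), among them acyl-CoA oxidase 4 (MSTRG.48440) from 59.7 to 276 CPM, and 6 rose and 6 fell with library size only.

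The list of low-oxygen response genes was read beside the fermentation enzymes. Of 22 tested genes, 15 rose and 4 fell over 24 h (median 1.31, beside -0.14 over all genes, of which 34.7% rose and 39.1% fell), and with library size only 10 rose and 8 fell. Haemoglobin 2 (MSTRG.41836) went up from 1.58 CPM to 17.2, 52.5 and then 209 CPM (7.05, SE 0.14). Sucrose synthase 3 (MSTRG.16291), which splits sucrose for glycolysis, rose from 254 to 2312 CPM, and alternative oxidase 1A (MSTRG.1857), a mitochondrial oxidase, from 74.2 to 917 CPM. LOB domain-containing protein 41 (MSTRG.47435), a regulator known from low oxygen in Arabidopsis, went the other way, from 28 to 4.77 CPM (-2.55, SE 0.13). The list is a choice of names, and several of these genes are known to answer other stresses.

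The minimum of 120 counts left out 14 matching genes. Just inside it lay CSS028170 (hexokinase-like 3) with a sum of 161 counts and the zinc-binding gene MSTRG.38889 with 260, neither of which was called. Just outside lay an ADH1 gene, MSTRG.37803, with 87 counts, of which 68 were in the 24 h libraries, and the zinc-binding gene MSTRG.42651 with 60, of which 0 were at 24 h.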

How the data were processed

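The 12 RNA libraries of withering tea leaves (0, 9, 15 and 24 h, each with 3) were tied to times by their titles. The authors deposited a table of raw whole-number counts, 1 row a gene, with scaffold coordinates and descriptions. Tools named in the submitters' processing notes are StringTie 1.3.1, HISAT2 2.0.5, Trimmomatic and FastQC 0.10.1. For the build, the strand and the way reads were counted, a statement is not given in the sources used here. In every library more genes had 4 counts (397 to 679) than 1 count (104 to 181), and how single reads became counts is not known here. Of the 94 members, 91 carry MSTRG and 3 CSS identifiers, 0 matched the RefSeq gene table, and no sequence is shown. Rows naming no gene were 0, and 0 columns of values were unused.

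R 4.3.3 with edgeR 4.0.16 was used on the counts: filterByExpr by time, TMM, then 1 model of time over all libraries (glmQLFit, glmQLFTest). TMM factors ran from 0.76 at 24 h to 1.24 at 0 h. The standard error is the log2 fold change divided by the square root of F. The fit was tested on simulated data of 24520 genes for 9 h against 0 h, where it found 10 of the 67 genes set to a 1.5-fold change. It found 33 of 67 at 2-fold and 50 of 66 at 4-fold, and called 3 unchanged genes. The simulation held only libraries of those times and changed few genes. The reported fit used all 12 libraries, and 53.9% of genes were called at 9 h against 0 h. The shares found in the simulation thus cannot be carried over to the reported test. Counting error matters at these depths mainly for genes of few counts. Replicate libraries all differed by more than sampling noise.

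Members, gene lists and tests were chosen with earlier results of these data known. Named genes were the 3 most counted per enzyme word, the 6 largest rises and 6 largest falls per comparison among called members whose mean reached 5 CPM and whose libraries did not overlap, and the genes nearest the row sum minimum. Members named outside this rule, after their values were seen, were MSTRG.10897, MSTRG.10900, MSTRG.31664, MSTRG.24557, MSTRG.39533, MSTRG.12804, MSTRG.34528, MSTRG.34114, MSTRG.42318, MSTRG.50852, MSTRG.32631, MSTRG.22507, MSTRG.25956, MSTRG.35641, MSTRG.14763 and MSTRG.46399. List genes, and members named only for a reversal between scalings, were also named after their values were seen. The tests were repeated with DESeq2 1.42.0, with size factors from it, with library size alone, with other filters and thresholds, and on just the compared times. Further alternatives were a block for the replicate number, each library left out, a row sum of 1200, and long database summaries kept. As 0 matching genes were such summaries, keeping them could not change any count. Leaving out the descriptions that name other proteins was added after seeing the data.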

Additional observations from a re-analysis of the deposited data

How the results depend on the processing

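Library size as the only scaling had the most effect. It gave 13 members higher and 50 lower at 24 h against 15 h, and 19 higher and 55 lower at 24 h against 0 h. At a threshold of 0.01, 16 members were higher at 15 h against 9 h. Every other alternative kept the counts of members within 1.5 times, and with each library left out in turn they ran from 29 to 33 higher and 19 to 21 lower at 9 h against 0 h, 19 to 24 and 11 to 15 at 15 h against 9 h, 22 to 25 and 24 to 28 at 24 h against 15 h, and 31 to 36 and 28 to 31 at 24 h against 0 h. Among the genes the report names, directions that turned with library size only were those of MSTRG.15241 (-0.16 at 24 h against 15 h and -0.18 at 24 h against 0 h), MSTRG.42303 (-0.12) and MSTRG.29857 (-0.04) at 24 h against 15 h, and, at 24 h against 0 h, MSTRG.8454 (-0.27), MSTRG.4580 (-0.33), MSTRG.42567 (-0.48), MSTRG.17703 (-0.30), MSTRG.42318 (-0.11), MSTRG.50852 (-0.18) and, among values that had not passed, MSTRG.12734 (-0.36), MSTRG.2780 (-0.57), MSTRG.22507 (-0.57), MSTRG.25956 (-0.55) and MSTRG.38889 (-0.33). Leaving out 1 library also turned values that had not passed at 24 h against 0 h, which then ran from -0.03 (without the first 24 h library) to 0.18 in MSTRG.2780, from -0.23 (without the first 24 h library; -0.03 without the first 0 h library) to 0.31 in MSTRG.22507, from -0.27 (without the first 24 h library; -0.08 without the third 0 h library) to 0.46 in MSTRG.25956, and from -0.23 (without the third 24 h library) to 0.78 in MSTRG.38889. The other reversals were in MSTRG.905 (-0.01 at 24 h against 15 h and -0.28 at 24 h against 0 h) and, at 24 h against 0 h, in MSTRG.11328 (-0.36), MSTRG.22999 (-0.02), MSTRG.26501 (-0.19) and MSTRG.45542 (-0.41). Of 217 calls over the 4 comparisons, 150 held at a threshold of 0.05 in every alternative fit (147 of these also passed 0.01), 44 were lost or reversed under an alternative other than library size, and 16 reversed under library size.

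With the replicate number as a block, 33 members were higher and 22 lower at 9 h against 0 h, 23 and 14 at 15 h against 9 h, 28 and 29 at 24 h against 15 h, and 35 and 31 at 24 h against 0 h. MSTRG.20691 passed at 24 h against 0 h under the block (-0.20, adjusted p = 0.0456 by edgeR). Deviations from the time means correlated by -0.079 to 0.061 over the 18 pairs of same-numbered libraries of different times. Such values, from means of 3 libraries, cannot show whether these libraries share leaves, and the labels do not say. Without the Myb/SANT-like factors and 2-isopropylmalate synthase, 30 members were higher and 30 lower at 24 h against 0 h. Genes near 1 CPM or below, such as malate synthase, are limited by depth.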
